A study of Mus musculus with 6 samples.

Results

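Collagen chains and fibronectin were compared between 2 genotypes of mouse retina at E15.5, an embryonic stage at which retinal neurons are being born. They are the 7 collagen genes Col3a1, Col5a2, Col6a3, Col4a3, Col4a4, Col9a1 and Col19a1 and the fibronectin gene Fn1, taken by gene symbol as 8 of the 1140 complete rows of the deposited gene table. All of these rows lie on chromosome 1, and genes of other chromosomes were not analysed here. The rows may not cover all of chromosome 1. Among genes of the lists used below that had a row, those on the plus strand reached Cd34 (start 194938821). Those on the minus strand ended at Lhx4 (start 155697872). A listed gene without a row may therefore lie where the rows do not reach. Of 44 mouse collagen genes listed by name, these 7 were the ones with a row. Total RNA from C57BL/6 retinas had been sequenced in 6 libraries, 3 per genotype, with 8 retinas pooled in each library. Control retinas were T2fx/+, which the submitters call wild type, although they carry 1 T2fx (Tbr2-f) allele. The other retinas were T2Isl1/+, with 1 allele that carries a knock-in of Isl1 at Tbr2. Both genotypes thus kept 1 unmodified copy of the locus, per the labels. Isl1, a LIM-homeodomain factor of retinal ganglion cells and other retinal neurons, and Tbr2 (Eomes), a T-box factor needed by some ganglion cells, were not analysed here, so the allele itself was not checked.

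Collagens are trimeric proteins whose chains wind into a triple helix built on regularly spaced glycine residues. Fibrillar collagens form the banded fibrils of connective tissue, network-forming type IV chains build basement membranes, beaded filaments of type VI link cells to the matrix, and fibril-associated collagens decorate fibrils. Fibronectin is a glycoprotein that cells assemble into fibres through integrins. In the embryonic eye the vitreous holds collagen fibrils with type IX on their surface, the ciliary margin of the retina makes type IX chains, and mesenchyme and blood vessels around and inside the eye make fibrillar collagens.

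The collagen genes lie in pairs on chromosome 1 (mm10). Col3a1 (45311538 to 45349706, plus strand) and Col5a2 (45374331 to 45503282, minus strand) point towards each other across 24.6 kb. Col9a1 (24177610 to 24252738, plus strand) and Col19a1 (24257683 to 24587437, minus strand) do so across 4.94 kb. Col4a4 (82450723 to 82586849, minus strand) and Col4a3 (82586921 to 82722059, plus strand) point away from each other, with 71 bases between their starts. Col6a3 (90766860 to 90843974, minus strand) and Fn1 (71585473 to 71653283, minus strand) have no other member beside them.

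Promoter windows of 300 bases (250 before and 50 after the start) were found for 5 of the 8 genes in RefSeq (GRCm38.p6, the assembly of mm10). Those of 3 genes are shown because the results below turn on Col3a1, because Col9a1 has the highest level and a pair of start sites, and because the Col4a4 window also holds the start of Col4a3. Each is written 5′ to 3′ on its gene's strand. For Col3a1 and Col9a1, capitals mark matches on either strand to the motif TATAAA, the motif CCAAT or the motif GGGCGG. For Col4a4 they mark the 71 bases between the Col4a4 and Col4a3 starts.
Col3a1, chr1:45311288-45311587, plus strand: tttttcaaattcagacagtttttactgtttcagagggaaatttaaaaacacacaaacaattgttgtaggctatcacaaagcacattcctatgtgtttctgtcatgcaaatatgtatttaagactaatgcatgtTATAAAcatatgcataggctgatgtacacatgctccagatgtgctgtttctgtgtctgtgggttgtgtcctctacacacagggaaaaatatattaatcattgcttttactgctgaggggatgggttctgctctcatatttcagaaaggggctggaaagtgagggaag
Col9a1 upstream start, chr1:24177360-24177659, plus strand: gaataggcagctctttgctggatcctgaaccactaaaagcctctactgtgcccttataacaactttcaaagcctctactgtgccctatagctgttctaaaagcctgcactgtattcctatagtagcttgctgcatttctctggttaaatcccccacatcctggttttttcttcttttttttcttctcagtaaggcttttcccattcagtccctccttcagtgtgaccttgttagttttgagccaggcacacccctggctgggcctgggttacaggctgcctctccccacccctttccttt
Col9a1 downstream start, chr1:24194953-24195252, plus strand: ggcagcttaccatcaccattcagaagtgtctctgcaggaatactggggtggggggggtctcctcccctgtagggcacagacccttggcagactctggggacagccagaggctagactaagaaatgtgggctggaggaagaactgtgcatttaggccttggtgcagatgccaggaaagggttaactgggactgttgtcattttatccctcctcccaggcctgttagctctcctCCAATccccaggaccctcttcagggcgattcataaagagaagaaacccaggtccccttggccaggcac
Col4a4 with Col4a3, chr1:82586800-82587099, minus strand: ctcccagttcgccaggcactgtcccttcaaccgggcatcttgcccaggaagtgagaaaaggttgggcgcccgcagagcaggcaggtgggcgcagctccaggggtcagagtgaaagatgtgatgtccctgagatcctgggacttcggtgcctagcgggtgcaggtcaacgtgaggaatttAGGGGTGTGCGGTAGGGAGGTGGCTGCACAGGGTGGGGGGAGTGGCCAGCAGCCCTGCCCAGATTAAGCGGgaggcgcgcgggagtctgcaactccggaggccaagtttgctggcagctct

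The Col3a1 window had a G and C content of 37.7% and 0 CpG dinucleotides, against medians of 52.7% and 7 over 32851 windows of the same length. Its TATAAA match began 117 bases before the start, and 13.6% of all windows held this motif. The upstream Col9a1 window likewise had 0 CpG dinucleotides, at 47.3% G and C, and held none of the 3 motifs. In the downstream Col9a1 window CCAAT, present in 37.4% of all windows, began 18 bases before the start. The shared Col4a4 and Col4a3 window was rich in G and C (63.3%), with 14 CpG dinucleotides and none of the 3 motifs. GGGCGG was present in 35.7% of all windows. These letters describe the windows and say nothing about which factors bind there.

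Col3a1 fell in T2Isl1 retinas, Col5a2 was lower without passing the test, and Col9a1 and Fn1 stayed near their control values. The authors had tested 4 of the 8 genes, and 1 of these 4 was lower and 0 were higher at a q-value (p-value adjusted for multiple tests) under 0.05. Over all 646 rows the authors had tested, 1.39% were lower and 0.155% were higher by the same rule, 1.55% in all. With Benjamini-Hochberg adjustment over these 646 rows alone, the lower genes were 2 of the 4, Col3a1 and Col5a2, against 1.55% of all tested rows. They were the same 2 at an unadjusted p-value under 0.05, against 2.63% of all tested rows. The other 4 genes, Col6a3, Col4a3, Col4a4 and Col19a1, were marked as not tested. Values are in FPKM (fragment counts scaled by transcript length and library size), which allows levels of different genes to be compared. The table gives 1 value per genotype, combined by the authors from the 3 libraries, so no value per library, SD or interval can be given, and whether single pools of the genotypes overlapped is unknown. The number of reads behind each value is unknown too. With bulk RNA, fewer cells of a type and less RNA per cell cannot be told apart.

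**Figure D1:**
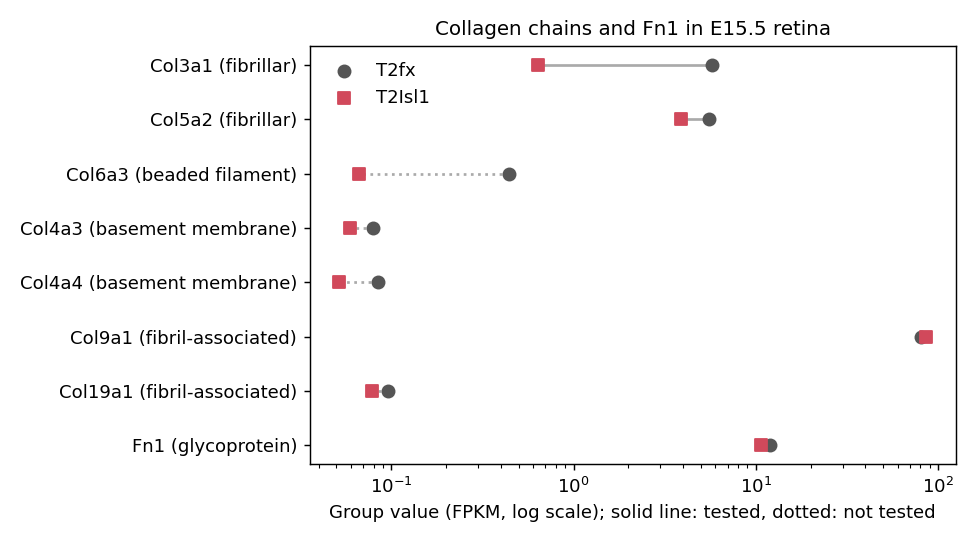
Group values of the 8 genes in T2fx (circles) and T2Isl1 (squares) retinas, in FPKM on a log axis, with 1 combined value per genotype and no error available. Col3a1 and Col6a3 have the widest gaps, from 5.76 to 0.637 and from 0.444 to 0.0664 FPKM, while Col9a1 stays above 80 FPKM in both genotypes.

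Among the fibrillar chains, Col3a1 encodes the chain of type III collagen, which forms homotrimers in vessel walls, skin and other stretchable connective tissue. It had 5.76 FPKM in T2fx and 0.637 FPKM in T2Isl1 retinas per the authors' deposited table. The knock-in value was 11.1% of the control value, a 9.04-fold difference (log2 fold change -3.18, q-value 0.0116 per the authors' deposited table). Its p-value of 5e-05 is the smallest of the authors' deposited table and is shared by 10 rows. Col3a1 thereby went from rank 431 to rank 627 of the 1140 rows by level. Only 8 of the 646 tested rows had a lower log2 fold change.

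Col5a2, the second fibrillar gene, encodes a chain of type V collagen, which co-assembles with type I collagen and limits the width of its fibrils. Its level in control retinas was almost that of Col3a1, 5.56 FPKM, and it was 3.88 FPKM in T2Isl1 retinas per the authors' deposited table. This 1.43-fold lower value (log2 fold change -0.52) had a p-value of 0.0003 and a q-value of 0.0588 per the authors' deposited table. It was the first row beyond the threshold of 0.05, next after the 10 called rows. Among 107 tested rows with 4 to 8 FPKM in control retinas, a range chosen after the values were seen, the lowest log2 fold changes were those of Col3a1 and Col5a2. The next was -0.35 for Plxna2, a semaphorin receptor gene, per the authors' deposited table, and the median of the 107 rows was 0.01. Both fibrillar genes thus lay below the other tested rows of this chosen range, at sizes of change that were far apart. Below the range, Sulf1 (2.11 FPKM in control retinas) and Kif26b (2.41 FPKM) had log2 fold changes of -0.51 and -0.47, near that of Col5a2.

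The relation of the 2 fibrillar chains differed between the genotypes. The ratio of Col3a1 to Col5a2 was 1.04 in T2fx and 0.164 in T2Isl1 retinas, computed from the group values. The difference in fold change between them was not tested, since only combined values were used here. No other tested row lay close to Col3a1. By distance over the 2 group values on the log2 scale, its nearest tested rows were Tmbim1, Sulf1 and Kif26b, at distances of 1.87 to 1.92. Tmbim1 had 1.80 and 1.14 FPKM per the authors' deposited table, which is well below Col3a1 in control retinas. For Col5a2 the nearest rows were Zfp142, Sphkap and Susd4, at 0.24 to 0.27. None of these 6 rows had a q-value under 0.05 per the authors' deposited table, and the smallest was 0.178 for Kif26b.

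**Figure D2:**
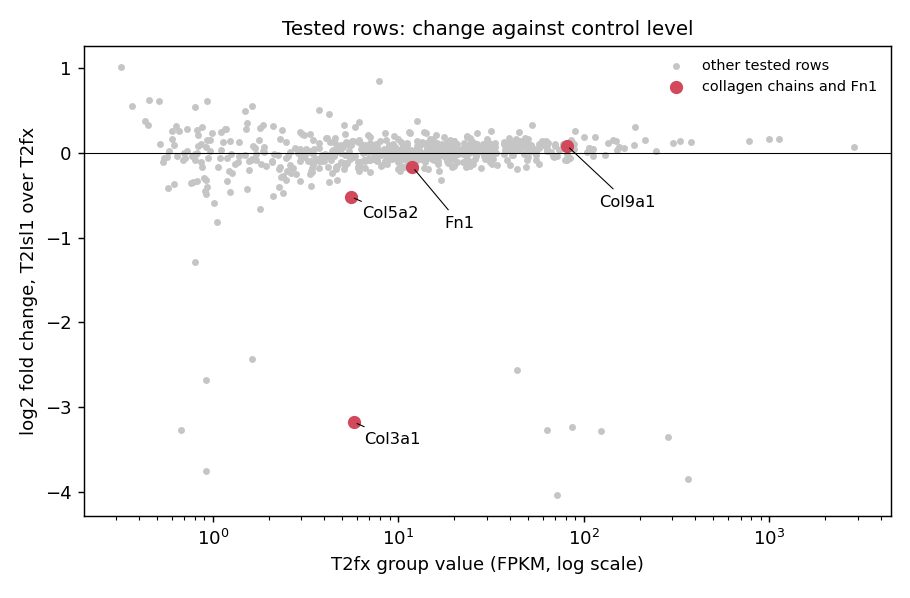
Log2 fold change (T2Isl1 over T2fx) against the control level in FPKM (log axis) for the 646 tested rows, with the 4 tested collagen and fibronectin genes in red and the others in grey. Col3a1 lies at -3.18, apart from rows of like level, Col5a2 at the lower edge of the band at -0.52, and Fn1 and Col9a1 within it.

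The type VI chain Col6a3 had a difference of similar proportion at a much lower level. Col6a3 encodes the longest chain of type VI collagen, whose beaded filaments surround cells of muscle, skin and other connective tissue. The authors' deposited table gave 0.444 FPKM in T2fx and 0.0664 FPKM in T2Isl1 retinas, 6.69-fold lower (log2 fold change -2.74). No p-value exists for this gene, so this is a description of 2 group values only. The tested and untested rows separated by level. The highest untested row had 0.516 FPKM and the lowest tested row 0.537 FPKM in its higher group, per the authors' deposited table. Col6a3 thus lay just under the level at which the authors tested genes. The ratio of Col6a3 to Col3a1 was 0.0772 in T2fx and 0.104 in T2Isl1 retinas.

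The basement membrane chains were barely represented. Col4a3 and Col4a4 encode chains that join with the product of Col4a5 in mature basement membranes, such as those of the kidney glomerulus, and mutations in them cause Alport syndrome. Col4a3 had 0.0796 and 0.0591 FPKM in T2fx and T2Isl1 retinas per the authors' deposited table. Col4a4 had 0.0847 and 0.0517 FPKM in the same order per the authors' deposited table. The members of this head-to-head pair, which share the window printed above, therefore had nearly equal low levels in each genotype. Both were below control, by 1.34-fold for Col4a3 and 1.64-fold for Col4a4, at levels where the authors made no test. Col4a3 overlaps the antisense gene C430014B12Rik over 30132 bases, and no source used here says whether reads were counted by strand. The widespread type IV chains encoded by Col4a1 and Col4a2 were not analysed here, so these values do not describe retinal basement membranes in general.

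Of the fibril-associated chains, Col9a1 was the most abundant of the 8 genes in both genotypes. Its product is a chain of type IX collagen, which coats type II fibrils in cartilage and vitreous, and the gene is a marker of the ciliary margin. Col9a1 had 81.1 FPKM in T2fx and 86.1 FPKM in T2Isl1 retinas per the authors' deposited table, ranks 40 and 33 of 1140 rows. The log2 fold change of 0.09 had a p-value of 0.444 and a q-value of 1.00 per the authors' deposited table. Of the tested rows, 72.0% had a lower log2 fold change than Col9a1, so it was not extreme in either direction. The row spans both start sites whose windows are printed above, and a shift between long and short Col9a1 transcripts would not be seen in this value. A short form made from the downstream start is the one known from vitreous.

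Col19a1, which lies next to Col9a1 and encodes a fibril-associated chain found near basement membranes and in some neurons, had 0.0959 and 0.0782 FPKM per the authors' deposited table. It was not tested, and its knock-in value was 81.5% of control. Adjacent fibril-associated genes thus had very different levels, while neither differed by more than 1.23-fold between the genotypes.

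Fn1 was second in level, with 11.9 FPKM in T2fx and 10.6 FPKM in T2Isl1 retinas per the authors' deposited table. Its log2 fold change of -0.17 had a p-value of 0.177 and a q-value of 1.00 per the authors' deposited table. Among the tested rows 12.4% had a lower log2 fold change. Fibronectin, which assembles into fibres on which fibrillar collagens are deposited, therefore did not pass the test, and its 1.12-fold difference was small beside that of Col3a1. Fn1 overlaps the antisense gene Apol7d over 364 bases. Apol7d had at most 0.382 FPKM in either genotype per the authors' deposited table.

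Col9a1 and Fn1 led the order of levels in both genotypes, and the order below them differed. In T2fx retinas it was Col9a1, Fn1, Col3a1, Col5a2, Col6a3, Col19a1, Col4a4 and Col4a3, and in T2Isl1 retinas Col9a1, Fn1, Col5a2, Col3a1, Col19a1, Col6a3, Col4a3 and Col4a4. Neighbours in this order, such as Col3a1 and Col5a2 in control retinas, cannot be separated by their spread, because none is available. Summed over the 7 collagen chains, the level was 93.1 FPKM in T2fx and 90.9 FPKM in T2Isl1 retinas. Col9a1 made up 87.1% and 94.7% of that sum. Without Col9a1, the sum of the other 6 chains was 12.0 FPKM in T2fx and 4.78 FPKM in T2Isl1 retinas, 2.52-fold lower. Most of that gap of 7.25 FPKM came from Col3a1, whose value was 5.12 FPKM lower, and most of the rest from Col5a2, 1.68 FPKM lower.

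Compared by class, fibrillar chains were lower in T2Isl1 retinas by 9.04-fold and 1.43-fold, type VI by 6.69-fold, type IV by 1.34-fold and 1.64-fold, and fibril-associated chains ranged from 1.23-fold lower to 1.06-fold higher. The ratio of Col9a1 to Col3a1 was 14.1 in T2fx and 135 in T2Isl1 retinas, and that of Fn1 to Col3a1 was 2.07 and 16.7. For Col5a2 the ratios moved less, with Col9a1 at 14.6 and 22.2 times and Fn1 at 2.14 and 2.74 times its level. Differences between classes were not tested, and with at most 2 chains in a class and 4 of the 7 chains untested by the authors, the order of classes is a description.

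Other genes of the extracellular matrix and its receptors were read from 4 lists, which were written with earlier results of these data known. Of 125 listed genes 19 had a row and 13 had been tested. At a q-value under 0.05, 0 were lower and 0 were higher per the authors' deposited table. An unadjusted p-value under 0.05 was found for 2, Chil1, which was lower, and Optc, which was higher. Over all tested rows, 2.63% were lower by that rule. The median log2 fold change of the 13 genes was -0.10, against 0.01 over all 646 tested rows. Of the 13, 8 were below and 5 above control, where 45.4% of all tested rows were below. Collagen modification was represented by Colgalt2, which adds galactose to collagen hydroxylysine, with 1.86 and 1.90 FPKM per the authors' deposited table. On the receptor side, Gpc1, a cell surface heparan sulfate proteoglycan, had 60.0 and 64.0 FPKM, and Dst, a linker of integrin adhesions to the cytoskeleton, had 10.7 and 9.59 FPKM per the authors' deposited table. No integrin gene was among the rows.

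Basement membrane genes outside the collagens had 1 tested member, the laminin chain gene Lamc1, with 7.06 and 6.02 FPKM and a p-value of 0.0533 per the authors' deposited table. Lamb3, which encodes a laminin chain of epithelia such as epidermis, was untested, with 0.108 and 0.00329 FPKM per the authors' deposited table. Hmcn1, encoding a large basement membrane protein and also untested, had 0.131 and 0.118 FPKM per the authors' deposited table. The knock-in value of Lamb3 was thus an even smaller part of its control value than that of Col3a1, at a level too low for the authors' test.

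Among the remaining matrix proteins, 9 genes were tested. The lowest log2 fold change was that of the chitinase-like gene Chil1, which had 0.915 and 0.0679 FPKM (q-value 0.511) per the authors' deposited table. Chil1 reached the level of tested rows through the control value alone. The leucine-rich proteoglycan gene Prelp had 0.818 and 0.648 FPKM, and Tnr, a tenascin of neural matrix, had 1.07 and 0.951 FPKM per the authors' deposited table. The highest was Optc, encoding opticin, a vitreous protein made by the ciliary epithelium, with 3.73 and 5.32 FPKM, a p-value of 0.0165 and a q-value of 1.00 per the authors' deposited table. Serpine2, a protease inhibitor gene, followed with 19.9 and 20.5 FPKM per the authors' deposited table. Neither of these 2 genes passed the test.

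**Figure D3:**
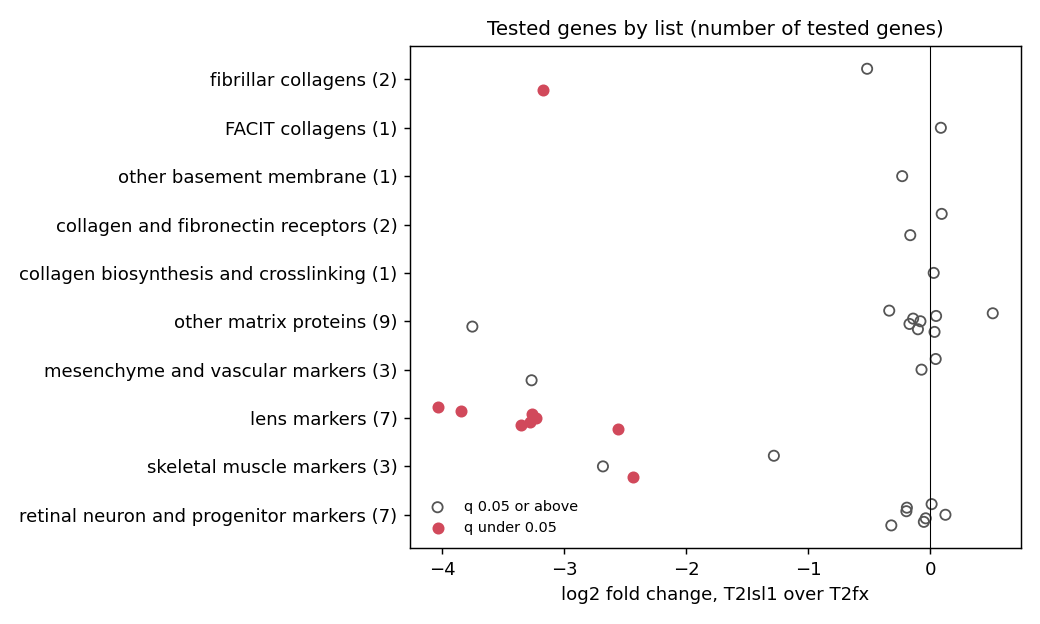
Log2 fold change (T2Isl1 over T2fx) of each tested gene by list, filled where the authors' q-value was under 0.05 and open otherwise, with the number of tested genes in brackets and points spread vertically only for legibility. All 7 lens genes, Chrng and Col3a1 are filled, each below -2.4.

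Lens genes were lower in T2Isl1 retinas too, and 1 gene passed on the other lists of tissues around the retina. Of 24 lens genes, 8 had a row and 7 were tested, and all 7 (Cryga, Crygb, Crygc, Crygd, Cryge, Crygf and Cryba2) fell, by 5.91-fold to 16.4-fold. Their summed level was 1038 FPKM in T2fx and 93.6 FPKM in T2Isl1 retinas, while Lgsn was listed at 0 in both. The sum was thus 11.1-fold lower, beside 9.04-fold for Col3a1. With 1 combined value per genotype, whether lens genes and Col3a1 varied together across pools cannot be seen. Of 25 skeletal muscle genes, 8 had a row, with a summed level of 4.22 and 1.46 FPKM, and Chrnd was listed at 0 in both genotypes. Of the 3 that were tested, Chrng, the fetal subunit gene of the muscle acetylcholine receptor, fell from 1.62 to 0.300 FPKM (q-value 0.0116), and Tnni1 and Myl1 had q-values of 1.00 per the authors' deposited table. Tnni1, a troponin gene of slow muscle, had 0.917 and 0.143 FPKM, and Myl1, a myosin light chain gene, had 0.798 and 0.328 FPKM per the authors' deposited table. Chrng, Tnni1 and Myl1 each reached the level of tested rows, 0.537 FPKM or more, through the control value alone. Among the untested muscle genes, Tnnt2 had 0.317 and 0.314 FPKM and Des, also on the mesenchymal and vascular list, had 0.408 and 0.303 FPKM per the authors' deposited table. Myog had 0.139 and 0.0548 FPKM and Mybph 0.0247 and 0.0148 FPKM, also untested.

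No mesenchymal or vascular marker passed the test. Of 24 such genes, 4 had a row and 3 were tested, with 0 called and a summed level of 15.3 and 14.4 FPKM. Twist2, a transcription factor gene of mesenchyme, had 0.677 and 0.0703 FPKM (p-value 0.00555, q-value 0.623) per the authors' deposited table, 9.62-fold lower. The pericyte gene Rgs5 had 7.55 and 7.18 FPKM, and Cd34 of endothelial and other cells had 6.66 and 6.86 FPKM per the authors' deposited table. Twist2 reached the level of tested rows through the control value alone, and differences among these genes were not tested. Of 10 listed pigment epithelium genes 0 had a row, and Col9a1 was the 1 of 10 listed ciliary margin genes with a row. Optc, described above as made by the ciliary epithelium, was on the matrix list instead. The part of lens, muscle or mesenchymal tissue in the collagen values was not tested, and a difference in dissection between the pools and one between genotypes cannot be told apart here.

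Genes of retinal neurons and progenitors were read from the same rows. Of 30 such genes, 7 had a row and all 7 were tested, with 0 called. Their summed level was 558 FPKM in T2fx and 578 FPKM in T2Isl1 retinas. Tested rows are detected rows by the authors' filter, so these genes alone do not establish the retinal identity of the samples. Of the 7, 5 were below control, against 45.4% of all 646 tested rows. Their median log2 fold change was -0.05, against 0.01 over those rows. Hes6, a neurogenic transcription factor gene that makes up most of that sum, had 380 and 414 FPKM, and Fzd5, a Wnt receptor gene of retinal progenitors, had 68.0 and 66.2 FPKM per the authors' deposited table. Tfap2b, a transcription factor gene of amacrine and horizontal cells, had 16.9 and 13.6 FPKM (p-value 0.008, q-value 0.807) per the authors' deposited table. The adhesion genes Cntn2 and Nfasc were 1.15-fold and 1.14-fold lower, with p-values of 0.0919 and 0.0890 per the authors' deposited table. Klf7 and Lhx4, the remaining 2, had -0.05 and 0.01 on the log2 scale.

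No call was found among genes near Col3a1, Fn1, Col9a1, Col4a3 and Col6a3, other than these genes themselves. Neighbours were tested rows that reach within 500 kb of either end of the gene. For Col3a1, Wdr75 was the 1 such row besides Col5a2, at a log2 fold change of 0.09 per the authors' deposited table. Around Col9a1 5 rows ranged from -0.11 to 0.10, around Col4a3 4 rows from -0.24 to 0.03 and around Col6a3 5 rows from -0.15 to 0.55 on the log2 scale. For Fn1 they were Bard1 and Atic, at -0.05 and -0.03. None of these 17 rows had a p-value under 0.05. No window was drawn around Col5a2, Col4a4 and Col19a1. A single further gene in the window of Col3a1 is too few to describe the region of the fibrillar pair.

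Transcript length moved with the fold change across genes. In 611 tested genes ordered by the length of their longest transcript into 5 groups of like size, the median was 0.09 on the log2 scale in the shortest and -0.08 in the longest group, where 77.9% of genes were below control. Col5a2 (6625 bases) and Fn1 (8315 bases) belong to the longest group, Col3a1 (5564 bases) to the fourth, with a median of -0.01, and Col9a1 (3834 bases) to the middle one, with a median of 0.04. The values of Fn1 and Col5a2 were 0.08 and 0.44 below the median of their length group on the log2 scale. The part of transcript length in these values was not tested.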

How the data were processed

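RNA of 6 retina libraries, 3 per genotype, was analysed from the table of gene comparisons that the submitters deposited. Cufflinks 2.1.1, TopHat2 2.1.1 and CASAVA were used with mm10, per the submitters' processing notes, which give no order. Annotation and library depth are not given in the sources used here. Per gene and genotype the authors deposited 1 value, read here as FPKM because of the tools named. They also deposited a log2 fold change without a pseudocount, a test score that was not used, a p-value and a q-value, per the file headers. The table has 1140 complete rows (1 incomplete row was left out), and 646 had been tested.

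Genes were called at the authors' q-value under 0.05, and no new test was made. Members, gene lists and rules were chosen with earlier results of these data known. Named genes were the 8 members, the called or otherwise the 3 lowest and 2 highest tested genes of the matrix, mesenchyme, lens and muscle lists, and the 3 nearest rows of Col3a1 and Col5a2. Retinal, untested and neighbouring genes were named after their values were seen. Starts were raised by 1 to count from 1. Strand, overlaps and transcript length came from GENCODE M21 (mm10). Benjamini-Hochberg adjustment, used in 1 alternative, was tested on simulated data. Python 3.11.15 and pandas 2.3.3 were used. Groups came from the sample titles, which do not say whether pools shared litters, so the authors' p-values may measure technical spread only. Some results are not reported here.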

Additional observations from a re-analysis of the deposited data

How the results depend on the processing

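The count of collagen and fibronectin genes called lower was 1 (Col3a1). It was 0 at a q-value under 0.01, as over all rows, since 0.0116 is the smallest q-value among them. With Col5a2 it was 2 at a q-value under 0.1. The share of all tested rows lower at that threshold was not computed. It lies between the 1.39% at a q-value under 0.05 and the 2.63% at an unadjusted p-value under 0.05. It was also 2 with Benjamini-Hochberg adjustment over the 646 tested rows alone, where 1.55% of rows are lower. At an unadjusted p-value under 0.05, where 2.63% of rows are lower, it was 2 as well. Minimum folds of 1.5 and 2 and floors of 1 and 5 FPKM left it at 1. Those settings could not remove Col3a1, 9.04-fold lower from 5.76 FPKM. Under them the share of all tested rows, not computed, can be at most the 1.39% lower without them. In each setting 0 members were called higher. Pseudocounts of 0.1 and 1 and both rescalings (shifts of 0.01 and 0.07 on the log2 scale) kept the sign of all 8 fold changes. Neither could reverse one. A pseudocount never changes a sign, and both shifts are smaller than the smallest log2 fold change by size, 0.09 for Col9a1. With a pseudocount of 1, the log2 fold change went from -3.18 to -2.05 for Col3a1 and from -2.74 to -0.44 for Col6a3. Rescaled to the sum of all rows without lens genes, Col9a1 went from 0.09 to 0.01. Of the 4 matrix lists, only the other matrix proteins had tested genes under a floor of 1 FPKM. Their median log2 fold change went from -0.10 to -0.08 with that floor, and the other medians could not move. No replicate could be left out. No paired analysis was possible because each genotype has only 1 combined value, without replicate numbers.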
